A study of Mus musculus with 7 samples.

Results

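Fibroblast growth factor (FGF) signaling genes were followed in outflow tracts (OFTs) of mouse embryos at embryonic day 11.5 (E11.5). The set held 10 names taken by gene symbol from the expression values: the ligands Fgf8 and Fgf10, the receptors Fgfr1, Fgfr2 and Fgfr3, and the feedback genes and targets Spry1, Spry2, Spry4, Etv5 and Dusp6. Of these, 9 were among the 14732 genes analysed, and Fgf8 was not analysed here. None of the 9 members had an adjusted p under 0.05 between genotypes. Fgfr3 had the largest difference of the members, with a mean of 43.7 ± 6.38 CPM (SD, n = 4) in Gata6STOP/+ OFTs and 34.9 ± 5.19 CPM (SD, n = 3) in control OFTs. CPM is the number of reads of a gene per 1e6 reads of its pool, with pool totals adjusted by edgeR's TMM factors.

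RNA was sequenced from 3 control pools, labelled WT (replicates 3, 4 and 5), and from 4 Gata6STOP/+ pools, labelled MUT (replicates 1, 3, 4 and 5). Gata6STOP/+ embryos carry 1 copy of Gata6, a zinc finger transcription factor gene, with a frameshift made by CRISPR-Cas9 in exon 2 that ends the protein early, and 1 intact copy. The allele is in the germline and is therefore present in every cell of these OFTs, and the controls were wild type. The series' own text speaks of 3 pools for each genotype, each of 4 pairs of OFTs, but 4 pools bear the Gata6STOP/+ label, and all 7 pools entered the tests. Values by pool are listed below in the order control 3, 4 and 5, then Gata6STOP/+ 1, 3, 4 and 5. The founder of the line was crossed back to C57BL/6, while sex and the number of litters behind a pool were not given in the sources used here. The p-values below set the difference between genotypes against the spread between these pools, and whether pools shared litters is not known.

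FGF ligands bind receptor tyrosine kinases at the cell surface, and the signal passes through adaptor proteins, RAS, RAF and MEK to the kinases ERK1 and ERK2. ERK raises the transcription of ETS factors such as Etv4 and Etv5 and of inhibitors that dampen the same pathway, among them the Sprouty proteins and the ERK phosphatase encoded by Dusp6. These feedback genes are therefore widely used as readouts of pathway activity. In the embryo, Fgf8 and Fgf10 are made in the pharyngeal region and the second heart field, the progenitor pool that adds cells to the OFT, and FGF signaling is needed for OFT growth and for the survival of neural crest cells that reach it.

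The depth was 17783655 to 29035529 reads on the analysed genes in control pools and 24736761 to 34467710 in Gata6STOP/+ pools. Gata6 itself was at 315, 257 and 286 CPM in the control pools, against 268, 203, 219 and 217 CPM in the Gata6STOP/+ pools, or 79.2% of the control mean (log2 fold change −0.34, limma adjusted p = 0.389, alternatives 0.0164 to 0.730). Gata6STOP/+ replicate 1 was above control replicate 4, so the groups overlapped. Markers of the labelled tissue were present in every pool. The summed level of 10 of 10 second heart field genes was 1238 to 1493 CPM in control and 1395 to 1466 CPM in Gata6STOP/+ pools (Tbx20, 557 to 728 and 640.4 to 702 CPM). The sum of 10 of 10 cardiomyocyte genes was 23599 to 26209 and 18721 to 27078 CPM, with Gata6STOP/+ replicate 1 lowest (Myh7, 8539 to 9585 and 7155 to 9241 CPM). The sum of 6 of 6 smooth muscle genes was 2579.8 to 3046 and 2687 to 3547 CPM (Acta2, 1449 to 1702 and 1557 to 2068 CPM).

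Other cell types that the dissection could hold were also measured. Of 12 listed markers of pharyngeal and foregut epithelium, 2 were analysed, Krt8 and Krt18, and the other markers were not analysed here. The sum of Krt8 and Krt18 was 69.9 to 110.04 CPM in control and 83.5 to 117 CPM in Gata6STOP/+ pools (Krt8, 43.4 to 71.4 and 49.2 to 73.6 CPM). These keratin genes alone do not measure that epithelium. Endothelium and endocardium, with 9 of 9 markers, summed to 819 to 1105 and 904 to 1115 CPM (Tek, 166 to 174 and 167 to 201 CPM), and epicardium, with 6 of 6, to 415 to 493 and 368 to 507 CPM (Upk3b, 169 to 209 and 167 to 229.6 CPM). Neural crest and Schwann precursor markers, 7 of 8, summed to 302 to 367 CPM in control and 265 to 310.2 CPM in Gata6STOP/+ pools (Ets1, 111 to 133 and 95.8 to 125 CPM), and cushion mesenchyme markers, 8 of 8, to 4417 to 5384 and 3956 to 4869 CPM (Vcan, 1831 to 2063 and 1600.1 to 2037 CPM). Erythroid markers, 8 of 8, varied most, at 2365 to 5679.9 and 2739 to 7154 CPM (Hbb-y, 988 to 2348 and 1137 to 3102 CPM). For every one of these sums the groups overlapped, and their part in the values of the FGF genes was not tested. Such overlap does not show that the cell make-up was alike. Gene by gene, Gata6STOP/+ means were higher for 8 and lower for 0 erythroid genes. The counts were 1 and 7 for cushion mesenchyme, 1 and 6 for neural crest and 2 and 8 for cardiomyocyte genes. They were 7 and 3 for second heart field, 7 and 2 for endothelium, 5 and 1 for smooth muscle and 4 and 2 for epicardium. Of all genes, 7339 were higher and 7393 lower. In whole OFTs, fewer cells of a type and less RNA per cell cannot be told apart.

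Each of the 9 members was covered in every pool, with 75 to 168 reads per pool for Fgf10 and at least 290 reads in every pool for each of the others. To compare levels between genes, CPM were divided by the length of the merged exons. On this length-scaled level, Spry2 (24.5 ± 2.53 CPM per kb in control, 23.8 ± 1.57 in Gata6STOP/+) was highest in all 7 pools. Dusp6 followed with 14.2 ± 1.48 and 13.2 ± 0.495 CPM per kb, Etv5 with 12.1 ± 0.591 and 11.9 ± 0.992, and Fgfr1 with 10.5 ± 0.329 and 10.5 ± 1.46. On this scale the feedback genes held the first 3 places, and Fgfr1 was the highest of the 3 receptors. Merged exons join all annotated transcripts of a gene, 19 for Fgfr1 (9875 bases) and 27 for Fgfr2 (10328 bases). Spry2 has 1 (2087 bases) and Dusp6 has 4 (3132 bases). Such a length can lower the level of genes with many transcripts, so the order of receptors against feedback genes depends on it. Lower levels were found for Spry1 (6.31 ± 0.577 and 6.35 ± 0.853 CPM per kb), Fgfr2 (5.76 ± 0.706 and 5.06 ± 0.811), Fgfr3 (4.87 ± 0.726 and 6.11 ± 0.891) and Spry4 (4.05 ± 1.03 and 3.52 ± 0.355). The ligand Fgf10 was lowest, at 0.793 ± 0.193 and 0.913 ± 0.119 CPM per kb.

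Some neighbours in this order could not be separated by their spread. The ranges over control pools overlapped between Dusp6 and Etv5, although Dusp6 was above Etv5 within each of the 7 pools. They also overlapped between Spry1 and Fgfr2, Fgfr2 and Fgfr3, and Fgfr3 and Spry4. Fgfr2 was above Fgfr3 in 4 of the 7 pools, and the order of their means was Fgfr2 over Fgfr3 in control and Fgfr3 over Fgfr2 in Gata6STOP/+ OFTs.

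**Figure D1:**
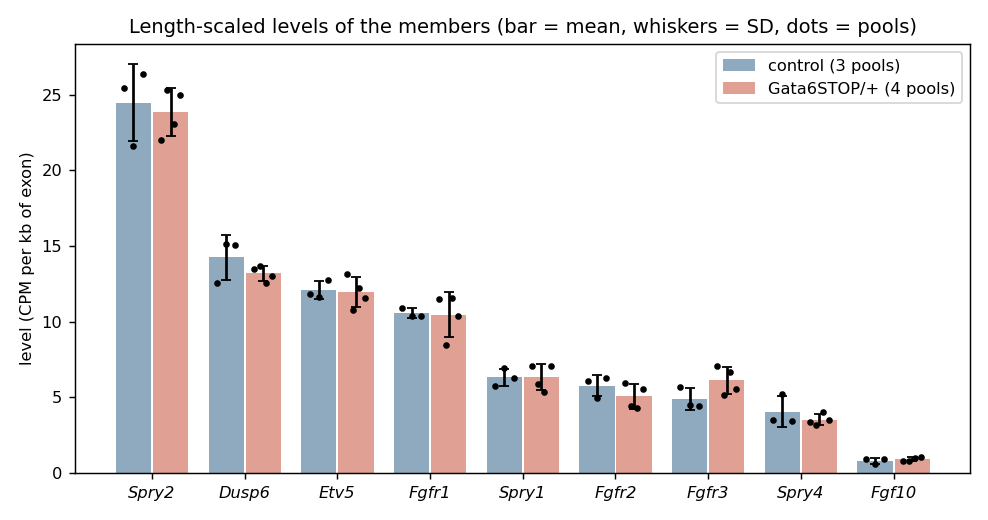
Level of each member in CPM per kb of merged exon, ordered by the control mean; bars are group means, whiskers SD and dots single pools (3 control, 4 Gata6STOP/+). Spry2 stands highest at 24.5 and 23.8 CPM per kb and Fgf10 lowest at 0.793 and 0.913 CPM per kb.

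Dusp6 and Spry2 were the highest members per kb of merged exon, and the 250 bases before their transcription starts held no annotated exon. These windows are shown as the promoters of these feedback genes, from RefSeq on GRCm38.p6 (Dusp6, chr10:99262981-99263230, plus strand; Spry2, chr14:105896820-105897069, minus strand). They are written 5′ to 3′, and capitals mark a match to the letters CGGAAG, a strict form of the ETS motif, here read on the opposite strand. Shorter GGAA stretches, which both windows also hold, were not marked.
Dusp6: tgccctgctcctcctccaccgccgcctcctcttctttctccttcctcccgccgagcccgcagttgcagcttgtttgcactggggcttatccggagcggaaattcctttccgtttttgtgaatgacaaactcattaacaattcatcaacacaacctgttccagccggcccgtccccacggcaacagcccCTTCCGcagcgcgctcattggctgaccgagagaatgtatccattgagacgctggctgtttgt
Spry2: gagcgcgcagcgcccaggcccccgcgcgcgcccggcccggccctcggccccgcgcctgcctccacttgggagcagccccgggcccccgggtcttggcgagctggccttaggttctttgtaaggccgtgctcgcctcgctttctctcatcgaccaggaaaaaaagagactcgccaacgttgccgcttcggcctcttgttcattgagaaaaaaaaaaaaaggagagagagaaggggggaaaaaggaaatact
The match in Dusp6 begins 62 bases before the start. It was the only match to CGGAAG, on either strand, among the windows of the 7 members for which a promoter was given (Fgf10, Fgfr2, Fgfr3, Spry1, Spry2, Etv5 and Dusp6). Of all 32851 promoter windows of this length, 13.6% held CGGAAG. The letters of the GATA motif (AGATAA or AGATAG, or either of these with T as the first letter, on both strands) were found in 26.5% of all windows and in none of these 7 members, which describes these letters in these windows alone.

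With limma on log2(CPM + 0.5), 0 of the 9 members had an adjusted p under 0.05, where 0% of all 14732 genes did. Fgfr3 alone, or 1 of 9, had an unadjusted p under 0.05, against 8.06% of all genes and 4.17% in the same direction, so this count was near that of genes at large. The means of 3 members were higher and those of 6 lower in Gata6STOP/+ OFTs, with a median log2 fold change of −0.021 over the members and −0.00073 over all genes. The groups overlapped for each of the 9 members, while 8.47% of all genes had groups that did not overlap. An exact permutation test over the 35 ways to part the pools cannot give a two-sided p under 0.0571, and for the members it gave 0.171 to 0.971.

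**Figure D2:**
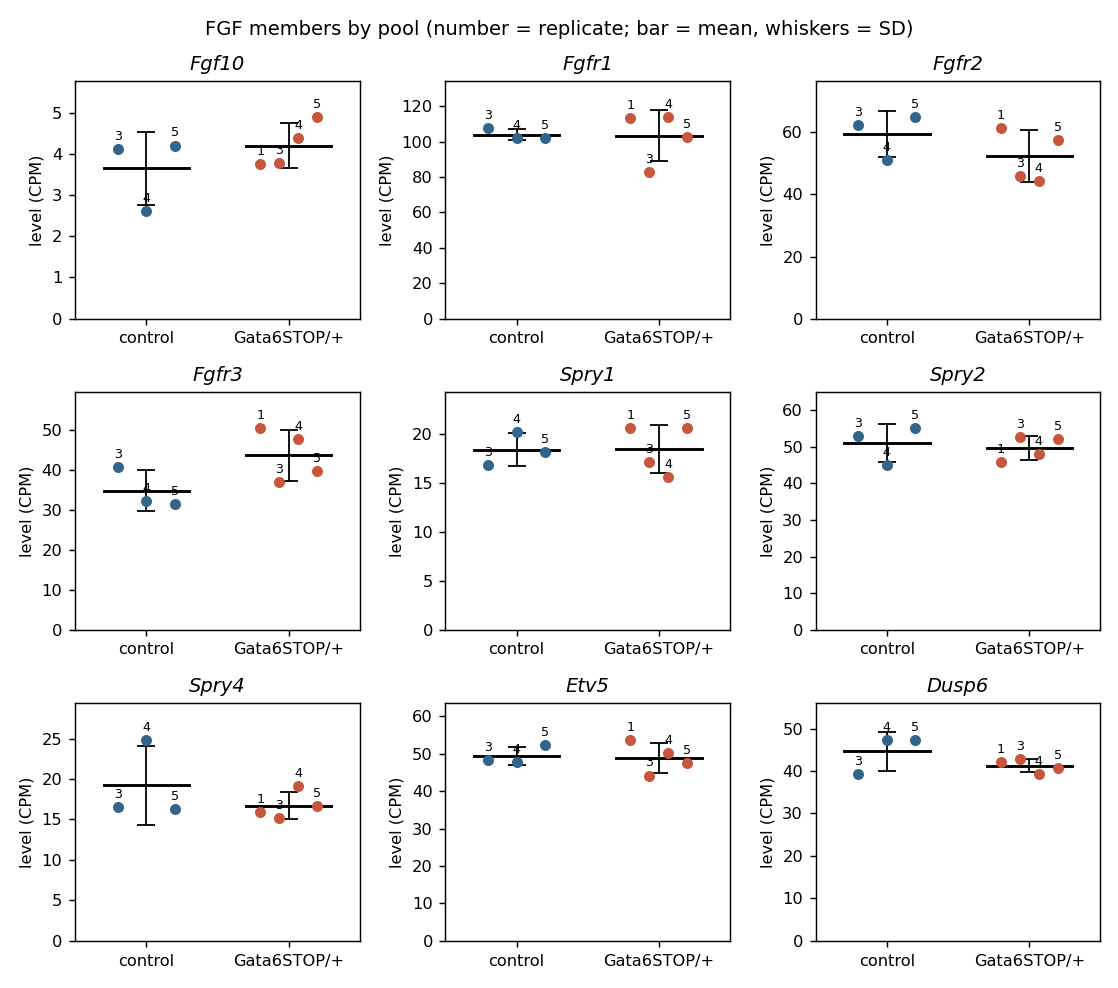
CPM of each member in every pool, with the y axis from 0; points are pools labelled with their replicate number, the thick bar is the group mean and the whiskers are the SD (3 control, 4 Gata6STOP/+ pools). The groups overlap in all 9 panels, and the means of Fgfr3 are 34.9 and 43.7 CPM.

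Fgf10, a ligand that binds mainly the IIIb form of FGFR2 and that marks second heart field cells, lies on the plus strand of GRCm38 (chr13:118669791-118792115, ENSMUSG00000021732). It was at 4.12, 2.62 and 4.20 CPM in the control pools, against 3.75, 3.77, 4.39 and 4.88 CPM in the Gata6STOP/+ pools. Control replicate 4 was the lowest pool, and 2 Gata6STOP/+ pools were above every control pool. The difference came to 0.20 on the log2 scale (standard error, SE, 0.176, limma adjusted p = 0.813), and its 95% interval ran from 87.6% to 150.1% of control. Without control replicate 4 it was 0.0046.

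Fgfr1, which had the most reads of the 3 member receptors, lies on the plus strand (chr8:25513654-25575718, ENSMUSG00000031565). Its level was 108, 102 and 102 CPM in the control pools, against 114, 83.1, 114 and 103 CPM in the Gata6STOP/+ pools. Gata6STOP/+ pools thus held both the highest and the lowest value, and their SD of 14.4 CPM exceeded that of the controls, 3.25 CPM. The log2 fold change of −0.021 (SE 0.0999, adjusted p by limma = 0.976) had a 95% interval of 84.6% to 115% of control.

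Fgfr2, whose splice forms serve epithelium or mesenchyme, is annotated on the minus strand (chr7:130162451-133123350, ENSMUSG00000030849). This long span shares 314 exon bases, 3.04% of its exon length, with Ctbp2 on the same strand, so that reads of this stretch can be assigned to either gene. Fgfr2 was at 62.4, 51.2 and 64.8 CPM in the control pools, against 61.2, 46.0, 44.3 and 57.5 CPM in the Gata6STOP/+ pools. Gata6STOP/+ replicates 3 and 4 were below every control pool, and replicates 1 and 5 lay among the controls. The mean in Gata6STOP/+ OFTs was 87.9% of control, the log2 fold change −0.19 (standard error 0.122, limma adjusted p = 0.742) and the 95% interval 72.6% to 106% of control.

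Fgfr3, a receptor best known for restraining the growth of cartilage, lies on the plus strand (chr5:33721674-33737068, ENSMUSG00000054252). It was at 40.9, 32.3 and 31.5 CPM in the control pools, against 50.4, 37.1, 47.8 and 39.7 CPM in the Gata6STOP/+ pools. Gata6STOP/+ replicates 1 and 4 were above every control pool, whereas control replicate 3 exceeded the other 2 Gata6STOP/+ pools. Fgfr3 differed by 0.32 on the log2 scale (standard error 0.122), with an unadjusted p of 0.0239 by limma's model and an adjusted p of 0.534 (alternatives 0.341 to 0.897). The 95% interval of 104% to 151% of control did not include equality, but an exact permutation test gave a two-sided p of 0.171. Leaving out each pool in turn, the difference stayed between 0.25 and 0.44. The unadjusted p was above 0.05 without control replicate 4 (0.0823), control replicate 5 (0.102), Gata6STOP/+ replicate 1 (0.0599) or Gata6STOP/+ replicate 4 (0.0634). On the opposite strand, G630022F23Rik covers 998 of its exon bases, or 13.9%. The library kit keeps the strand, but the strand setting of the counting was not given in the sources used here, so the part of such reads in Fgfr3 was not tested.

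The summed level of these 3 receptors was 198 ± 12.7 CPM (SD, n = 3) in control and 199 ± 24.6 CPM (SD, n = 4) in Gata6STOP/+ OFTs. Within this sum, Fgfr3 made up 19.4%, 17.4% and 15.9% in control replicates 3, 4 and 5 and 22.4%, 22.3%, 23.2% and 19.9% in Gata6STOP/+ replicates 1, 3, 4 and 5. Every Gata6STOP/+ pool had a larger Fgfr3 share than every control pool, by a narrow margin between control replicate 3 and Gata6STOP/+ replicate 5. The Fgfr1 share was 51.1% to 55.1% in control and 50.03% to 55.3% in Gata6STOP/+ pools, and the Fgfr2 share 27.5% to 32.7% and 21.5% to 28.8%. Relative to Fgfr3, the log2 level of Fgfr1 differed by −0.34 and that of Fgfr2 by −0.51 between the means of Gata6STOP/+ and control pools. Shares and ratios do not depend on the scaling between pools. They were chosen after the values were seen. Among 6 ratios within the receptors and within the Sprouty genes, only those of Fgfr1 and of Fgfr2 over Fgfr3 had groups that did not overlap. For each of them an exact permutation test gave a two-sided p of 0.0571, the smallest possible, and 0.171 after adjustment over the 6 ratios. Both share Fgfr3 and so are not independent, and the adjustment does not cover their choice after the values were seen.

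**Figure D3:**
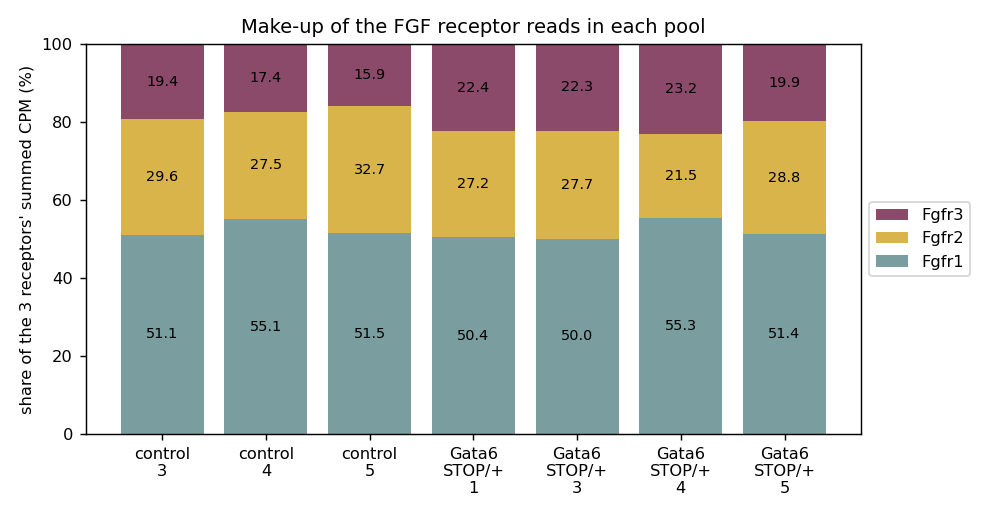
Share in percent of Fgfr1, Fgfr2 and Fgfr3 in their summed CPM in each of the 3 control and 4 Gata6STOP/+ pools, as stacked bars that add to 100%. The Fgfr3 share is 15.9% to 19.4% in control and 19.9% to 23.2% in Gata6STOP/+ pools, and the Fgfr1 share overlaps between groups.

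The Sprouty genes encode intracellular inhibitors of receptor tyrosine kinase signaling. Spry1 (chr3:37639947-37644598, plus strand, ENSMUSG00000037211) was at 16.8, 20.1 and 18.1 CPM in the control pools, against 20.5, 17.1, 15.6 and 20.5 CPM in the Gata6STOP/+ pools. The control range lay inside the Gata6STOP/+ range. Its log2 fold change was 0.0016 (SE 0.113, adjusted p by limma = 0.998), with a 95% interval of 84.2% to 119% of control. Gm42922 covers 24.4% of its exon bases on the opposite strand.

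Spry2 (chr14:105891947-105896819, minus strand, ENSMUSG00000022114) was at 53.0, 45.1 and 55.0 CPM in the control pools, against 45.9, 52.8, 48.2 and 52.1 CPM in the Gata6STOP/+ pools. Here every Gata6STOP/+ pool lay inside the control range. Its log2 difference was −0.034 (SE 0.0832, limma adjusted p = 0.943) and the 95% interval 86.0% to 111% of control.

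Spry4 (chr18:38586247-38601415, minus strand, ENSMUSG00000024427) was at 16.6, 24.9 and 16.2 CPM in the control pools, against 15.9, 15.2, 19.1 and 16.7 CPM in the Gata6STOP/+ pools. Control replicate 4 stood above all other pools. The log2 fold change of −0.17 (SE 0.144, adjusted p by limma = 0.7997, 95% interval 71.1% to 110.5% of control) rested on that pool and was 0.021 without it. The 3 Sprouty genes together were at 88.6 ± 1.95 CPM in control and 84.9 ± 3.18 CPM in Gata6STOP/+ OFTs.

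Dusp6 encodes a phosphatase that inactivates ERK in the cytoplasm (chr10:99263231-99267489, plus strand, ENSMUSG00000019960). It was at 39.3, 47.4 and 47.2 CPM in the control pools, against 42.2, 42.8, 39.3 and 40.8 CPM in the Gata6STOP/+ pools. Control replicates 4 and 5 were above every Gata6STOP/+ pool and control replicate 3 was the lowest pool of all. Between genotypes the log2 difference was −0.11 (SE 0.0786, limma adjusted p = 0.783), with a 95% interval of 82.3% to 105% of control. Without control replicate 3 it was −0.20 (limma adjusted p = 0.627).

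Etv5, an ETS transcription factor gene (chr16:22381309-22439719, minus strand, ENSMUSG00000013089), was among the steadiest members. It was at 48.4, 47.8 and 52.2 CPM in the control pools, against 53.8, 44.2, 50.2 and 47.5 CPM in the Gata6STOP/+ pools. With a log2 difference of −0.019 (SE 0.0762, limma adjusted p = 0.969), its 95% interval ran from 87.9% to 111% of control. The intervals of the members give the differences compatible with these 7 pools, and no limit of detection was computed. A member whose interval includes equality is therefore not shown to be unchanged.

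**Figure D4:**
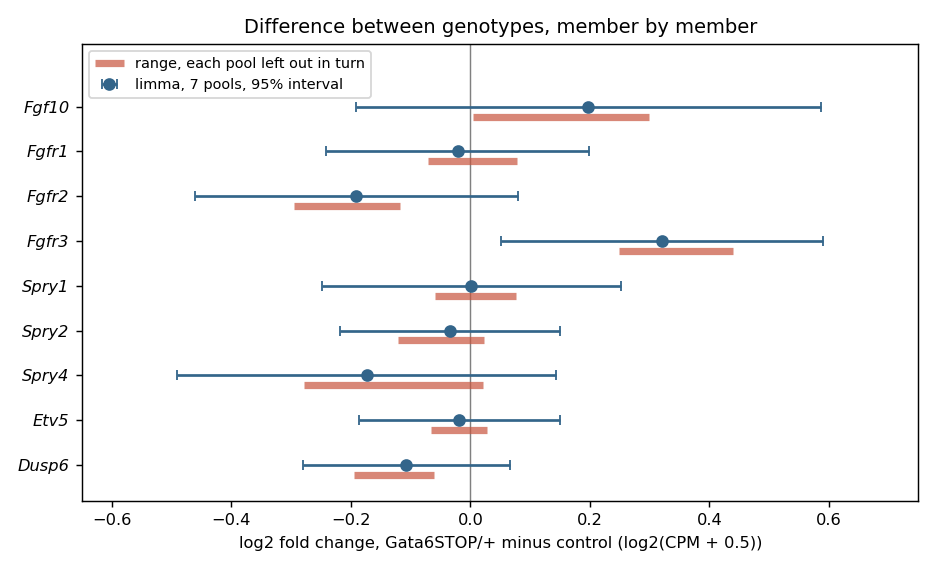
Log2 fold change of each member (Gata6STOP/+ minus control, on log2(CPM + 0.5)); dots are limma estimates over 7 pools with 95% intervals, and the thick orange lines give the range with each pool left out in turn. The interval of Fgfr3 alone, 0.051 to 0.59, lies on one side of 0, and the leave-one-out ranges of Fgfr1, Spry1, Spry2, Spry4 and Etv5 cross 0.

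The spread between pools differed among the members. In control pools the coefficient of variation was 24.4% for Fgf10 and 25.4% for Spry4, each through control replicate 4, and 3.12% for Fgfr1. In Gata6STOP/+ pools it ran from 3.75% for Dusp6 to 16.0% for Fgfr2. Across all 7 pools the highest value was 1.21 times the lowest for Dusp6 and 1.86 times for Fgf10. No pool was extreme for most members. Gata6STOP/+ replicate 3 held the lowest value of 3 members (Fgfr1, Spry4 and Etv5), and control replicate 4 the highest of 2 (Spry4 and Dusp6) and the lowest of 2 (Fgf10 and Spry2).

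Over the 7 pools, the members did not form 1 common pattern. Pearson's r of log2(CPM + 0.5) between members ran from −0.78 (Fgfr3 and Dusp6) to 0.78 (Fgfr1 and Etv5). Among the members and the other FGF genes listed, the gene most like Spry1 was Sos2, a RAS exchange factor gene (r = 0.95), and 6 of the 11626 genes that averaged 5 CPM or more were closer to it. Those most like other members were Shc1 for Fgfr1 (r = 0.90), Map2k1 for Spry2 (r = 0.89), Ptpn11 for Fgf10 (r = 0.85), Fgfr4 for Fgfr2 (r = 0.83), Etv1 for Etv5 (r = 0.80), Fgf5 for Dusp6 (r = 0.70) and Il17rd for Fgfr3 (r = 0.69). For Fgfr3, 544 of 11626 genes had a higher r than Il17rd, and for Dusp6, 385 had a higher r than Fgf5. Over all genes of this level the nearest were Kcnn4 for Fgf10 (r = 0.98), Nptxr for Fgfr1 (r = 0.995), Papss1 for Fgfr2 (r = 0.97), Epn2 for Fgfr3 (r = 0.99), Adgrl2 for Spry1 (r = 0.98), Bcas2 for Spry2 (r = 0.96), Mmrn2 for Spry4 (r = 0.99), Acvr1 for Etv5 (r = 0.99) and Aplf for Dusp6 (r = 0.99). With 7 pools that share their libraries and genotype groups, the highest of so many r is large for any gene, and these r are descriptions.

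The wider pathway was read from 5 further lists, in which 47 genes were analysed. The mean was higher in Gata6STOP/+ OFTs for 24 and lower for 23, with 0 adjusted p under 0.05 by limma. An unadjusted p under 0.05 was found for 5 of 47, against 8.06% of all genes. It was 1 gene with a higher mean (4.17% of all genes) and 4 with a lower mean (3.88% of all genes). Every Gata6STOP/+ pool was above every control pool for Fgfbp3 (4.31% of all genes) and below for Fgf5, Mapk3 and Etv4 (4.16% of all genes).

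Of 16 other FGF ligands, 6 were analysed (Fgf1, Fgf2, Fgf5, Fgf6, Fgf9 and Fgf18), with 3 means higher and 3 lower and a median log2 fold change of 0.035. Fgf1 had the most reads, at 19.3 ± 1.19 and 20.6 ± 1.67 CPM, followed by Fgf2 at 10.2 ± 1.09 and 11.8 ± 1.03 CPM. Neither had an unadjusted limma p under 0.05 (log2 fold change 0.085 and 0.21). Fgf5 was at 3.64, 4.17 and 4.09 CPM in the control pools, against 3.40, 3.12, 3.05 and 2.62 CPM in the Gata6STOP/+ pools, so that every Gata6STOP/+ pool was lower. It is a gene with few reads, 73 to 121 per pool. Its log2 fold change was −0.34 (standard error 0.141, limma unadjusted p = 0.0363, adjusted p = 0.581). Of the intracellular FGF homologous factors, which do not act through FGF receptors, Fgf11 and Fgf13 were analysed, with log2 fold changes of 0.031 and −0.22 (limma adjusted p = 0.970 and 0.673).

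Among other receptors and surface partners, 6 of 9 were analysed, with a median log2 fold change of −0.11. Flrt3, a transmembrane protein that interacts with FGF receptors, was at 125, 125 and 145 CPM in the control pools, against 128, 76.9, 96.2 and 91.8 CPM in the Gata6STOP/+ pools. Gata6STOP/+ replicate 1 lay within the control range and the other 3 Gata6STOP/+ pools below it. The difference of −0.44 on the log2 scale (standard error 0.139, limma unadjusted p = 0.0090, adjusted p = 0.428) was −0.58 (limma adjusted p = 0.126) without Gata6STOP/+ replicate 1. Over the alternatives, the adjusted p of Flrt3 ran from 1.07e-06, by a likelihood ratio fit (edgeR) in which replicate numbers formed blocks, to 0.735. Fgfrl1, a receptor-like protein that lacks the kinase domain, was at 165, 127 and 138 CPM in control and 126, 105, 134 and 119 CPM in Gata6STOP/+ pools in the same order. Its log2 fold change of −0.24 (standard error 0.1002, limma unadjusted p = 0.0370, adjusted p = 0.583) went to −0.13 without control replicate 3, the highest pool. Fgfbp3, a secreted FGF carrier, was at 2.49, 2.86 and 3.30 CPM in control and 3.999, 4.06, 3.50 and 3.61 CPM in Gata6STOP/+ pools. Every Gata6STOP/+ pool was higher (log2 fold change 0.35, standard error 0.144, limma unadjusted p = 0.0355, adjusted p = 0.579), on 52 to 124 reads. Fgfr4 was barely present, with 18 to 35 reads per pool.

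In the signal relay from the receptor to ERK, all 22 genes were analysed, 13 with higher and 9 with lower means, none with an unadjusted limma p under 0.05, and the median log2 fold change was 0.017. The genes with the most reads were Ptpn11, which encodes the phosphatase SHP2, at 301 ± 17.5 and 327 ± 20.6 CPM (log2 fold change 0.12, limma adjusted p = 0.720), and the adaptor gene Crk at 204 ± 9.66 and 206 ± 2.73 CPM (0.012, limma adjusted p = 0.974). Mapk3, which encodes ERK1, was at 87.0, 84.4 and 86.5 CPM in control and 82.0, 83.9, 82.5 and 77.7 CPM in Gata6STOP/+ pools. Its groups did not overlap, but the difference was small (log2 fold change −0.077, standard error 0.0545, limma adjusted p = 0.773). Shc1, Sos2 and Map2k1, each most like a member in pattern, had log2 fold changes of 0.013, 0.045 and −0.039.

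Of the other feedback genes and targets, 11 of 11 were analysed, with 4 means higher and 7 lower and a median log2 fold change of −0.013. Etv4, an ETS factor gene of the same subfamily as Etv5, had the smallest limma p of the 56 FGF genes when all 7 pools were used with no block. It was at 22.9, 22.3 and 20.6 CPM in the control pools, against 16.7, 15.5, 19.0 and 15.3 CPM in the Gata6STOP/+ pools. Every Gata6STOP/+ pool was below every control pool. The mean in Gata6STOP/+ OFTs was 75.7% of control, with a log2 fold change of −0.40 (standard error 0.0941, limma unadjusted p = 0.0015, adjusted p = 0.260, alternatives 0.0452 to 0.549). The value of 0.0452 came from edgeR's likelihood ratio test, which called 0.713% of all genes. Etv1, the remaining gene of this ETS subfamily, was at 40.5 ± 1.76 and 39.2 ± 5.61 CPM (log2 fold change −0.057, limma adjusted p = 0.914). Etv4 had a lower mean in Gata6STOP/+ OFTs, while the intervals of Etv1 and Etv5 included 0, and the difference between these genes was not tested. Il17rd, an inhibitor of FGF signaling, was at 24.7 ± 1.69 and 28.9 ± 3.47 CPM (log2 fold change 0.22, limma unadjusted p = 0.0534, adjusted p = 0.629). The most abundant of this list were Spred1, at 69.6 ± 7.45 and 72.0 ± 2.52 CPM, and Dusp7, at 55.6 ± 3.16 and 55.1 ± 1.82 CPM, with log2 fold changes of 0.055 and −0.013.

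**Figure D5:**
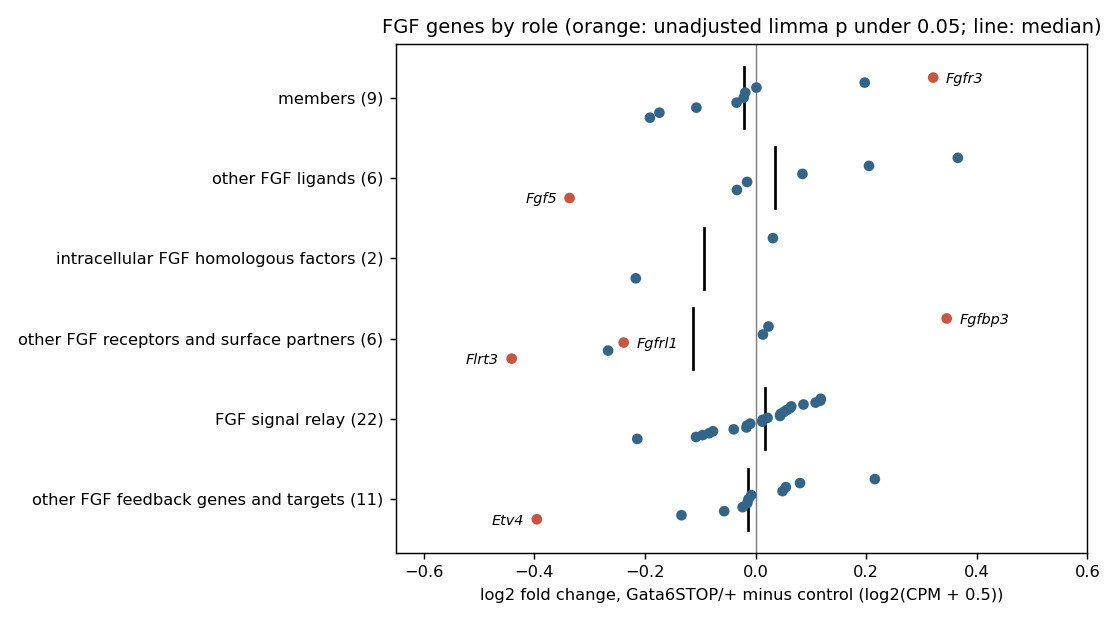
Log2 fold change (Gata6STOP/+ minus control) of the 9 members and of 47 other FGF genes grouped by role, with the number of genes in parentheses; each dot is a gene, orange where the unadjusted limma p was under 0.05, and the black line is the group's median. The medians lie between −0.11 and 0.035, and Fgfr3, Fgfbp3, Fgf5, Flrt3, Fgfrl1 and Etv4 are the orange genes.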

How the data were processed

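Gene expression in 7 OFT pools (3 control, 4 Gata6STOP/+) was analysed. Libraries were made from poly(A) RNA with a strand-keeping kit and read from 1 end over 60 bases. Per the methods, adapters were removed with Cutadapt 1.18 and reads were assigned to the Ensembl genes of GRCm38 by RSEM 1.2.3. The authors retained genes reaching 1 CPM in 3 or more samples, and the deposited values are CPM after TMM scaling in edgeR 3.32.1. In every pool, 100% of the values were whole multiples of 1 read (within 0.01 reads), so reads could be recovered.

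The main test was limma 3.58.1 (lmFit and eBayes with a trend, R 4.3.3) on log2(CPM + 0.5), with genotype as the sole term and all 7 pools. Two-sided p-values were adjusted by Benjamini-Hochberg over 14732 genes, with a threshold of 0.05. This scale understates changes of genes with few reads. Exact permutation tests used scipy 1.17.1. Positions and exon lengths came from GENCODE M21 (14716 identifiers matched) and promoters from RefSeq. The members and gene lists were chosen with earlier results of these data known. The genes named are the members, other FGF genes with an unadjusted limma p under 0.05 or groups that did not overlap, the 2 with most reads per FGF list, Gata6, the gene with most reads of each cell type list, and the genes most like each member in pattern. Alternatives were constants of 0.1 and 2, a minimum mean of 5 CPM, median-of-ratios scaling, a replicate block, the likelihood ratio and quasi-likelihood tests of edgeR 4.0.16 and DESeq2 1.42.0 on recovered reads, and leaving out each pool in turn. A setting without any filter could not be run, since the listed genes are already filtered. Fits were tested on simulated data.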

Additional observations from a re-analysis of the deposited data

How the results depend on the processing

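None of the 9 members had an adjusted p under 0.05 in any alternative run. Over all genes, the number with an adjusted p under 0.05 was 0 in limma and 1 with a constant of 0.1, 88 with DESeq2 and 105 with edgeR's likelihood ratio test, and it was 0 to 13 with 1 pool left out (13 without control replicate 4, 2 without Gata6STOP/+ replicate 3, 1 without Gata6STOP/+ replicate 1). Same-numbered pools did not deviate together: their deviations from the group means had correlations of −0.046, −0.27 and −0.017 over 11627 genes. No pool correlated best with the pool of its own number. With so few pools, these values cannot show whether same-numbered pools shared a litter or a preparation. With the replicate number as a block, in which Gata6STOP/+ replicate 1 has no control partner, 14 genes were called by limma, 13 by edgeR's quasi-likelihood test and 118 by its likelihood ratio test. Changes of sign were checked for the members and for FGF genes named by p, overlap or reads. Under these 3 blocked fits, in the order limma, quasi-likelihood and likelihood ratio, the log2 fold change changed sign for Spry1 (−0.052, −0.054 and −0.054), Spry2 (0.0033, 0.0033 and 0.0033) and Dusp7 (0.0071, 0.0074 and 0.0075), which were all near 0. With no partner in its block, Gata6STOP/+ replicate 1 adds nothing to the genotype term. The blocked log2 fold changes of limma therefore equal those with that pool left out, and do not show an effect of the block itself. They were −0.27 for Fgfr2 (blocked limma adjusted p = 0.473) and 0.25 for Fgfr3 (0.804). Shc1 (−0.025) and Map2k1 (0.0083) thus also changed sign in blocked limma, as did some relay genes not named here. Flrt3 had a block adjusted p of 0.053 by limma and 1.07e-06 by the likelihood ratio test.

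With 1 pool left out, the sign also changed for Fgfr1 (−0.071 to 0.079), Spry1 (−0.059 to 0.076), Spry2 (−0.12 to 0.022), Spry4 (−0.28 to 0.021), Etv5 (−0.065 to 0.028), Fgf11 (−0.12 to 0.13), Shc1 (−0.025 to 0.061), Sos2 (−0.0077 to 0.096), Map2k1 (−0.089 to 0.0083), Crk (−0.025 to 0.043), Spred1 (−0.036 to 0.11) and Dusp7 (−0.049 to 0.031). The number of members with an unadjusted p under 0.05 was 0 to 2. It was 2 without control replicate 3 (Fgfr3 and Dusp6, where 6.37% of all genes were under 0.05). It was 0 without control replicate 5 (7.19% of all genes) or Gata6STOP/+ replicate 4 (7.36%). The single member was Fgfr2 without control replicate 4 (8.82%) or Gata6STOP/+ replicate 1 (7.65%). The single member was Fgfr3 without Gata6STOP/+ replicate 3 (8.85%) or Gata6STOP/+ replicate 5 (5.9%). The number of members whose groups did not overlap was 0 to 2. It was 2 without control replicate 3 (Fgfr3 above, Dusp6 below, 14.7% of all genes) and 2 without control replicate 4 (Fgfr2 and Spry2 below, 19.1% of all genes). The median log2 fold change of the members ran from −0.065 to 0.028 with 1 pool left out and was positive without Gata6STOP/+ replicate 3 alone. Fgf10, Fgf5 and Fgfbp3, with means under 5 CPM, could not be tested with that filter.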
